A study of Mus musculus with 12 samples.

Results

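Voltage-gated calcium and sodium channel genes and potassium channel genes were followed as 1 group in RNA of bulk mouse pylorus, the outlet of the stomach. Members were taken by gene symbol: the calcium channel pore, alpha2delta and beta subunits (Cacna1, Cacna2d, Cacnb), the sodium channel alpha and beta subunits (Scn followed by a number and a or b), and every symbol starting with Kcn. Kcne2, Kcnq1 and Kcnj15, which serve acid secretion in parietal cells, were left out. Of 123 such symbols, 95 had 10 or more counts in at least 3 of the 12 libraries and form the group, out of 23420 genes counted. They comprise 17 calcium, 9 sodium and 69 potassium channel genes. The minimum fell between Kcnj13 and Kcnh7, whose third-highest count was 9, and Kcng2, Cacna1s and Scn4b, at 10. A total of 73 members had 10 counts in at least 3 of the 6 wild-type libraries. The other 22 passed only with the help of transgenic libraries, Kcnh5 through the transgenic libraries of 80 days alone, so a difference in these genes was partly built into the choice.

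The mice were of the C57BL/6 strain. Wild-type animals and carriers of the CEA424-SV40 T Ag transgene were each sampled at an age of 60 (D60) or 80 (D80) days, giving 4 groups of 3 libraries. The transgene places the T antigen of a polyomavirus, which inactivates p53 and the retinoblastoma proteins, under the control of a carcinoembryonic antigen promoter, and tumours arise in the pyloric region. The labels name no treatment and do not say whether libraries came from separate animals, so p-values measure the spread between libraries, which may be technical. Values are CPM, counts scaled to a common library total and by TMM composition factors, and differences are log2 fold changes with their standard error (SE) from edgeR's quasi-likelihood test, with p-values adjusted by Benjamini-Hochberg over 15369 tested genes and a threshold of 0.05. In bulk tissue, fewer cells of a type and less RNA per cell cannot be told apart.

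Ion channels set the membrane voltage of a cell and turn changes of voltage into calcium entry. Sodium and calcium channels open on depolarization, potassium channels bring the voltage back down or hold it near rest, and the calcium that enters triggers contraction in smooth muscle and release of granules in endocrine cells and nerve terminals. In the wall of the stomach, smooth muscle, pacemaker cells, enteric neurons and enteroendocrine cells are excitable and use different sets of these channels, while surface epithelium uses potassium channels in ion and fluid transport.

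Libraries held 20121600 to 27633715 counts, of which the 95 genes took 0.0916% to 0.177%. Markers of excitable cell types differed between groups. The summed level of 11 neuroendocrine markers (granins, their processing enzymes and lineage factors) was 321 to 465 CPM in the D60 wild-type, 4368 to 5984 in the D60 transgenic, 537 to 572 in the D80 wild-type and 25247 to 37809 in the D80 transgenic libraries, and 11 of 11 were higher in transgenic tissue at both ages. The sum of 12 smooth muscle markers was 17755 to 23392, 7853 to 15870, 12505 to 20352 and 3023 to 3188 CPM in the same order, with 0 of 12 past the threshold at D60 and 12 of 12 lower at D80. Of 11 tested enteric neuron markers, 4 were higher and 5 lower at D80. The 5 surface mucous markers were all lower at D80, with sums of 54239 to 137170 CPM in wild-type and 16106 to 29122 CPM in transgenic libraries. Transcripts of X and Y chromosomes showed male-type D60 wild-type libraries, female-type D80 wild-type and D60 transgenic libraries, and 1 male-type library (replicate 1) among 3 D80 transgenic ones, so genotype and sex cannot be told apart in the 6 libraries of D60. D80 wild-type replicate 3 held up to 10593 CPM of duodenal markers and D80 transgenic replicate 1 up to 4161 CPM of pancreatic acinar markers. The part of these differences in the results below was not tested, except where a value is given.

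At D60, 16 channel genes were higher and 1 was lower in transgenic pylorus among the 92 members that could be tested, 17.4% and 1.09%, where 3.66% and 0.241% of all genes passed in those directions (3.9% in either). Their median log2 fold change was 0.11, against -0.00 over all genes. The 16 were Cacna1i, Cacna1a, Cacna2d3, Scn8a, Kcnb2, Kcnc1, Kcnab2, Kcnh6, Kcnip3, Kcnj3, Kcnj4, Kcnj5, Kcnj6, Kcnk12, Kcnk16 and Kcnt1, and the gene that was lower was Kcnip2. In 15 of the 16, all but Kcnab2, every D60 transgenic library lay above all 6 wild-type libraries. The 16 were picked by the D60 test, so lying above the D60 wild-type libraries was partly built in. The D80 wild-type libraries are female-type but also differ in age. The share of all genes with the same order was not counted, and the part of sex was not tested. Of the 73 members with counts in wild-type tissue 7 were higher and 1 was lower, and of the 19 tested others 9 were higher. The median log2 fold changes of these 73 and 19 members were 0.04 and 2.22. With sex as a covariate, which rests on 1 male-type transgenic library, 1 of the 17 calls remained, that of Cacna1i. The count of higher members was 10 when replicate 1 or replicate 3 of the D60 wild-type group, or replicate 2 of the D60 transgenic group, was left out. The calls of Kcnj3, Kcnj4, Kcnj6, Kcnk12 and Kcnt1 were each lost when any 1 of the D60 wild-type libraries, or that same D60 transgenic one, was removed.

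At D80 the group split. Transgenic tissue had 35 channel genes higher and 22 lower of 92, or 38.0% and 23.9%, beside 19.4% and 22% of all genes (41.3% in either direction), and the median was 0.27 against -0.07 over all genes. All 16 genes that were higher at D60 were also higher at D80, and in each the D80 transgenic mean exceeded the D60 transgenic mean. Among the 73 members with counts in wild-type tissue, 19 were higher and 21 lower, 26.0% and 28.8%, with a median of 0.02. Among the 19 tested members that needed transgenic libraries to pass the minimum, 16 were higher and 1 was lower, with a median of 3.72. Without TMM factors the median of all genes moved from -0.07 to 0.34. The members then split into 42 higher and 16 lower and all genes into 5104 and 1001, in place of 2974 and 3380. None of the 51 D80 calls that remained turned direction, and Kcna2, Kcnk7, Kcnma1, Kcnn4, Scn2b and Scn7a lost their lower call. Without D80 transgenic replicate 1, the 1 male-type library of D80, 51 of the 57 calls remained. That fit still held the male-type D60 wild-type libraries. With sex as a covariate 50 remained, and 47 remained without D80 wild-type replicate 3 and D80 transgenic replicate 1 together.

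With age, 33 members were higher and 22 lower at D80 than at D60 in transgenic mice, beside 17.7% and 18% of all genes (35.7% in either direction), with a median of 0.43 against 0.02. Of the 73 members with counts in wild-type tissue, 20 were higher and 22 lower (27.4% and 30.1%), with a median of -0.01. Of the 19 tested members that needed transgenic libraries to pass the minimum, 13 were higher and 0 lower, with a median of 2.04. In wild-type mice 0 members and 0% of all genes passed edgeR's test between the ages, where 3 members and 1925 of all genes (12.5%) had an unadjusted p under 0.05. DESeq2 called 0 members there and 164 higher and 90 lower of all genes. Without D80 wild-type replicate 1, edgeR called 0 members and 376 higher and 20 lower of all genes. The wild-type libraries were all male-type at D60 and all female-type at D80, so age and sex cannot be told apart in this comparison.

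**Figure D1:**
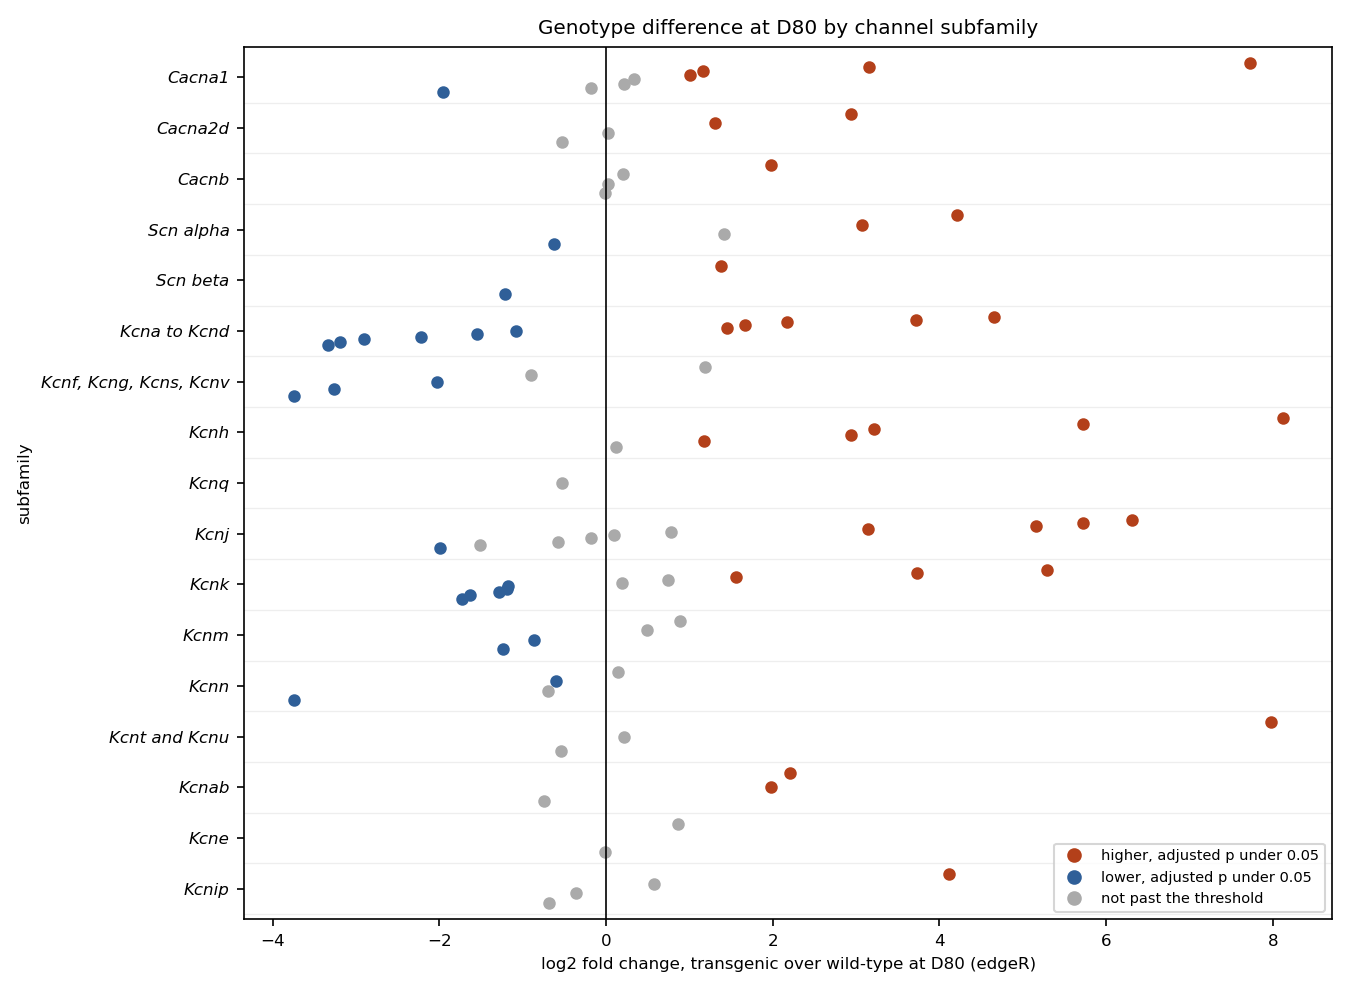
Log2 fold change of transgenic over wild-type at D80 for tested members of each subfamily that are reported here (x axis), 1 point per gene, by subfamily (y axis). Red points were higher and blue points lower at an adjusted p under 0.05; Kcnh has 5 of 6 genes higher and none lower, the silent subunits have 3 of 5 lower and none higher, and the Kcna to Kcnd genes lie on both sides of 0.

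Among the pore-forming calcium channel subunits, 2 of 8 tested were higher at D60, beside 3.66% of all genes, and 4 were higher and 1 lower at D80, beside 19.4% and 22%. Cacna1i, counted as higher at both ages, had passed the count minimum only with the help of transgenic libraries. The largest difference was in Cacna1i, a T-type channel that opens near resting voltage (GRCm38, chromosome 15, 80287238 to 80398279). Cacna1i stood at 0, 0 and 0.0952 CPM in the D60 wild-type libraries, 1.06, 2.04 and 1.79 in the D60 transgenic, 0.0813, 0.0441 and 0.0433 in the D80 wild-type and 9.31, 16.7 and 13.1 in the D80 transgenic libraries. The genotypes did not overlap at either age. Its D60 wild-type libraries held 2 counts in all, and the D60 ratio was 47.4-fold with a counting interval of 12.8 to 396 (95%, Clopper-Pearson). At D80 the log2 fold change was 7.72 (SE 0.55, adjusted p = 1.7e-06).

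Cacna1a, the pore of the P/Q-type channel that triggers release at nerve terminals, measured 1.42, 2.40 and 2.43 CPM in D60 wild-type and 5.69, 9.17 and 8.17 in D60 transgenic libraries. At D80 it measured 2.15, 3.0 and 2.34 and 21.2, 25.2 and 20.4 CPM. Every transgenic library was above every wild-type library, with log2 fold changes of 1.87 (SE 0.25, adjusted p = 0.00098) at D60 and 3.15 (SE 0.25, adjusted p = 4.2e-06) at D80. Cacna1d, an L-type pore used in endocrine cells, and the T-type pore Cacna1g were higher at D80 alone, by 1.16 (SE 0.40, adjusted p = 0.038) and 1.01 (SE 0.35, adjusted p = 0.036), and both calls were lost without D60 replicate 3 of either genotype, replicate 2 of the D80 wild-type group, or replicate 1 or 2 of the D80 transgenic group. Both were also lost with sex as a covariate, with a replicate block and with a minimum fold of 1.5. The call of Cacna1d was also lost without replicate 3 of either D80 group, and that of Cacna1g without D80 wild-type replicate 1. Cacna1e, the R-type pore, went the other way, from 2.36, 3.26 and 3.77 CPM in wild-type to 0.481, 0.738 and 1.18 CPM in transgenic libraries at D80, -1.96 (SE 0.44, adjusted p = 0.0043).

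The 3 pores with the highest levels per kb of exon in wild-type tissue did not pass the test. Cacna1h, a T-type channel and the highest of them, measured 45.1, 32.4 and 45.4 CPM in wild-type and 50.6, 56.8 and 47.1 in transgenic libraries at D80 (0.33, SE 0.25, adjusted p = 0.31). Cacna1c, the L-type pore of smooth muscle, measured 14.9, 15 and 21.8 and 14.5, 16.7 and 14.3 CPM, with overlapping groups and a log2 fold change of -0.19 (SE 0.23, adjusted p = 0.54), in tissue where the smooth muscle marker sum was lower in every transgenic library. Cacna1b, the N-type pore of neurons, also overlapped (0.21, SE 0.21, adjusted p = 0.46). Cacna1s, the pore of skeletal muscle, was too low to test.

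The alpha2delta subunits carry pore subunits to the membrane and raise their current. Cacna2d1, the highest of them per kb, measured 40.4, 42.2 and 44.8 CPM in D60 wild-type and 34.9, 49.0 and 41.5 in D60 transgenic libraries, which overlapped. At D80 it measured 59.1, 37.3 and 31.0 CPM in wild-type and 81.6, 122 and 113 in transgenic libraries, with no overlap and a log2 fold change of 1.31 (SE 0.23, adjusted p = 0.0011). Cacna2d3 was higher at both ages, with 2.60, 3.29 and 2.43 CPM at D60 and 6.61, 8.63 and 8.06 at D80 in transgenic libraries against 1.13 ± 0.118 (SD, n = 3) and 1.01 ± 0.142 in wild-type. Its log2 fold changes were 1.29 (SE 0.23, adjusted p = 0.0066) and 2.93 (SE 0.23, adjusted p = 3.8e-06). Of the cytoplasmic beta subunits, Cacnb4 was higher at D80 (1.97, SE 0.55, adjusted p = 0.014), at levels of 0.571, 1.07 and 0.589 CPM against 0.244, 0.176 and 0.130, a call lost without replicate 3 of the wild-type or replicate 2 of the transgenic group of D80. Cacnb3, the highest beta subunit per kb, and Cacnb2 had D80 log2 fold changes of 0.02 (SE 0.17) and -0.02 (SE 0.24) and did not pass.

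Sodium channel alpha subunits carry the upstroke of the action potential. Scn8a, a pore of neurons, measured 0.617, 0.471 and 0.428 CPM in D60 wild-type and 1.505, 3.63 and 2.89 in D60 transgenic libraries, and 0.325, 0.882 and 0.910 and 10.96, 15.8 and 12.5 CPM at D80. The genotypes were apart at both ages, by 2.41 (SE 0.42, adjusted p = 0.0061) and 4.21 (SE 0.41, adjusted p = 1.6e-05). Scn3a, a pore of developing neurons and endocrine cells, measured 0.488, 1.76 and 0.867 CPM in wild-type and 7.78, 10.7 and 7.75 in transgenic libraries at D80 (3.07, SE 0.39, adjusted p = 0.00013). At D60 its libraries were also apart, 0.803, 0.659 and 0.476 against 1.63, 2.29 and 1.79 CPM, but the test missed the threshold (1.56, SE 0.42, adjusted p = 0.066).

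Scn7a, a sodium-sensing relative that is not opened by voltage, was the highest alpha subunit per kb in wild-type tissue. It was lower at D80, 6.49, 6.05 and 6.72 against 10.7, 10.5 and 8.45 CPM (-0.62, SE 0.21, adjusted p = 0.034). This call was lost without TMM factors, with sex as a covariate and with a minimum fold of 1.5. It was also lost without any 1 of the D80 transgenic libraries, D80 wild-type replicate 1 or 2, or D60 wild-type replicate 1. Scn9a had a D80 value of 1.41 (SE 0.59, adjusted p = 0.077). Of the beta subunits, which anchor and tune the pores, Scn3b was 1.25 ± 0.212 CPM in wild-type and 3.25 ± 0.476 in transgenic libraries at D80 (1.38, SE 0.32, adjusted p = 0.0052). Scn2b was lower (-1.22, SE 0.32, adjusted p = 0.011), a call lost without TMM factors.

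**Figure D2:**
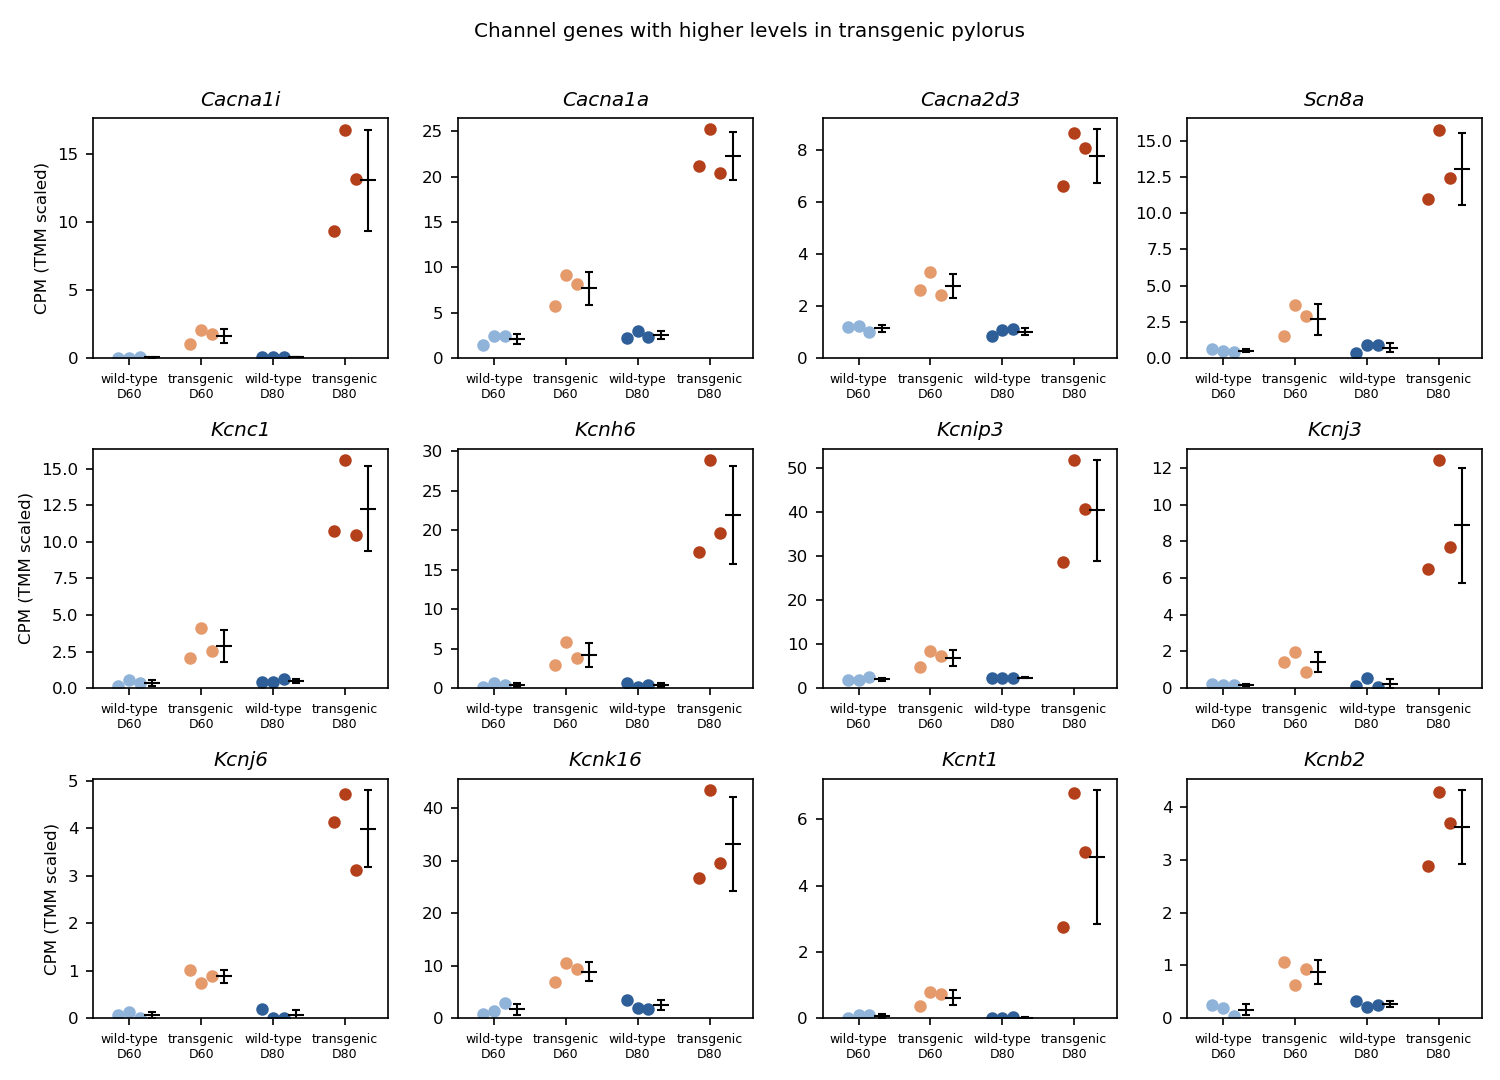
CPM (TMM scaled, linear axes from 0) of 12 channel genes in each of the 12 libraries; points are libraries and black marks are the mean and SD of 3. In each panel the D80 transgenic libraries lie above all others, for example Kcnip3 at 28.7, 51.8 and 40.7 CPM against 2.38 or less in D80 wild-type.

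Voltage-gated potassium channels are assembled from several pore subunits, and the Kcna, Kcnb, Kcnc and Kcnd genes encode the families Kv1 to Kv4. At D80 these genes went apart, within the Kcnd family too. Kcnb2, Kcnc1, Kcnc2, Kcnc4 and Kcnd1 were higher, and Kcna1, Kcna2, Kcna5, Kcna6, Kcnd2 and Kcnd3 were lower. Kcnc1, a fast Kv3 channel that lets cells fire repeatedly (GRCm38, chromosome 7, 46396497 to 46438704), measured 0.123, 0.565 and 0.381 CPM in D60 wild-type, 2.03, 4.13 and 2.55 in D60 transgenic, 0.406, 0.441 and 0.607 in D80 wild-type and 10.8, 15.6 and 10.5 in D80 transgenic libraries. The genotypes did not overlap at either age, with 2.96 (SE 0.43, adjusted p = 0.0016) and 4.65 (SE 0.42, adjusted p = 8.6e-06). Kcnb2, a delayed rectifier of the Kv2 family, measured 1.06, 0.625 and 0.936 CPM at D60 and 2.88, 4.28 and 3.69 at D80 in transgenic libraries, where no wild-type library exceeded 0.325 CPM, with 2.45 (SE 0.47, adjusted p = 0.01) and 3.72 (SE 0.41, adjusted p = 3.9e-05). Kcnc2, Kcnc4 and Kcnd1 were higher at D80 with log2 fold changes of 1.45 to 2.17.

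Kcnd3, the pore of a fast-inactivating A-type current (GRCm38, chromosome 3, 105452330 to 105674002), was the highest Kcna to Kcnd gene per kb in wild-type tissue, at 28.6, 39.8 and 27.1 CPM at D60 and 34.4, 30.7 and 37.5 at D80. The transgenic libraries held 14.8, 36.2 and 32.6 CPM at D60, overlapping wild-type, and 4.45, 3.21 and 3.50 at D80, far below. The D80 log2 fold change was -3.20 (SE 0.31, adjusted p = 1.5e-05). An antisense gene, Kcnd3os, overlaps its exons, and reads of the pair cannot be told apart because the strand setting of the counting is not given. Kcnd2 was low throughout, with 0.0901, 0 and 0.124 CPM in D80 transgenic libraries (-2.91, SE 0.70, adjusted p = 0.0067).

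Kcna1, a low-threshold Kv1 channel of axons and muscle, measured 6.24, 14.6 and 8.66 CPM in D60 wild-type and 5.33, 10.9 and 9.79 in D60 transgenic libraries, which overlapped. At D80 it measured 11.7, 7.54 and 10.1 and 0.961, 1.11 and 0.837 CPM, with no overlap and a log2 fold change of -3.33 (SE 0.37, adjusted p = 4.8e-05). Kcna1 lies between Kcna5 and Kcna6 on chromosome 6, on the same strand (Kcna5 chromosome 6, 126532551 to 126535412, Kcna1 chromosome 6, 126640397 to 126646384, Kcna6 chromosome 6, 126708329 to 126740674). All 3 were lower at D80, with log2 fold changes of -1.55 (SE 0.35, adjusted p = 0.0051) for Kcna5 and -2.22 (SE 0.37, adjusted p = 0.00081) for Kcna6. Kcna2, on chromosome 3, was lower at -1.09 (SE 0.31, adjusted p = 0.015), a call lost without TMM factors, with sex as a covariate or without D80 transgenic replicate 3.

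Kcnf1, Kcng1, Kcng4 and Kcns3 encode silent subunits, which form no channel alone and alter Kv2 channels when they join them. Kcnf1 (GRCm38, chromosome 12, 17172100 to 17176888) measured 31.9, 26.3 and 28.6 CPM in D80 wild-type and 7.45, 8.70 and 5.24 in D80 transgenic libraries, with a log2 fold change of -2.02 (SE 0.21, adjusted p = 2.2e-05). Kcng4 measured 3.58, 1.94 and 2.43 and 0.150, 0.295 and 0.372 CPM (-3.27, SE 0.40, adjusted p = 9.4e-05). At D60 both genes overlapped between genotypes, Kcnf1 at -0.32 (SE 0.20, adjusted p = 0.51) and Kcng4 at -0.27 (SE 0.35, adjusted p = 0.81). Kcng1 was lower at D80 with 0 to 0.15 CPM in transgenic libraries (-3.75, SE 0.70, adjusted p = 0.0016), Kcns3 missed the threshold (-0.90, SE 0.34, adjusted p = 0.052), and the silent subunit Kcnv2 had 1.19 (SE 0.54, adjusted p = 0.097). In all, 3 of 5 tested silent subunits were lower at D80, beside 22% of all genes.

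**Figure D3:**
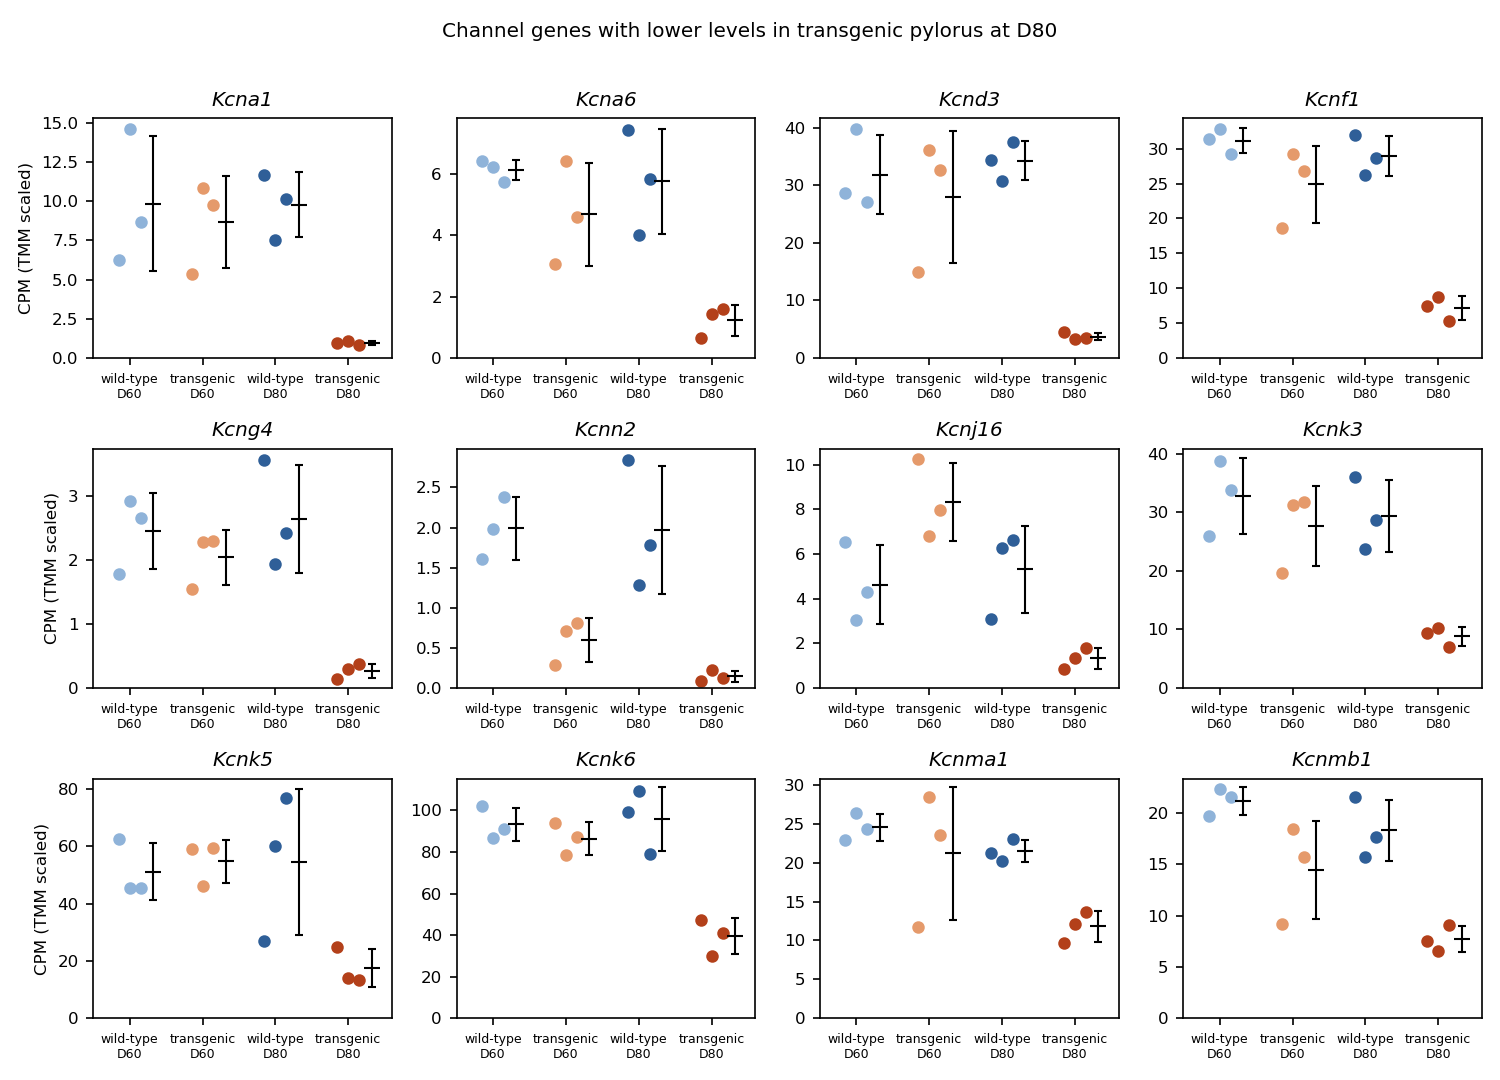
CPM (TMM scaled, linear axes from 0) of 12 channel genes in each of the 12 libraries; points are libraries and black marks are the mean and SD of 3. The D80 transgenic libraries lie lowest in every panel except that of Kcnma1, where D60 transgenic replicate 1 (11.8 CPM) lies below 2 of them, while the D60 transgenic libraries mostly lie among the wild-type ones.

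**Figure D4:**
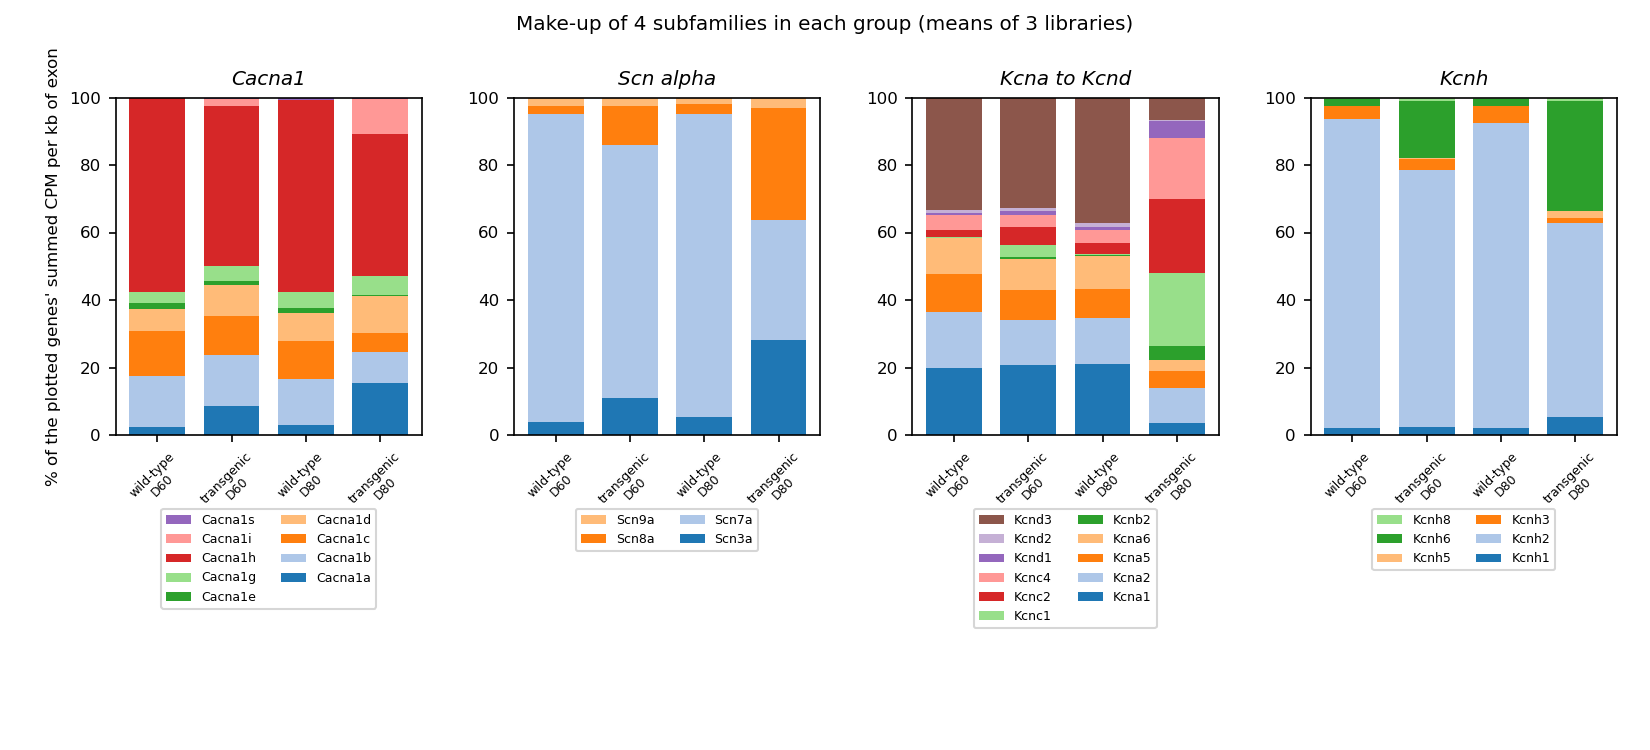
Share of each gene in the summed level of the genes plotted for its subfamily (CPM per kb of exon, y axis in percent) for 4 subfamilies, as means of 3 libraries in each of the 4 groups (x axis). Wild-type groups of both ages look alike, and in D80 transgenic tissue Cacna1a and Cacna1i, Scn3a and Scn8a, Kcnb2, Kcnc1, Kcnc2 and Kcnc4, and Kcnh6 take larger shares.

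Shares were taken per kb of exon, of the summed level of the genes plotted for a subfamily. Among the Kcna to Kcnd genes the make-up differed between genotypes at D80, with ranges over 3 libraries in brackets. The Kcnd3 share was 37.1% (32.5 to 40.7) in D80 wild-type and 6.78% (4.56 to 9.38) in D80 transgenic libraries, and the Kcna1 share 20.9% (20.04 to 22.1) and 3.43% (3.07 to 4.07). The Kcnc1 share was 0.535% (0.389 to 0.622) and 21.6% (19.4 to 23.0). Among the sodium channel alpha subunits Scn3a, Scn7a, Scn8a and Scn9a, Scn7a made up 89.7% (84.9 to 95.7) of the level per kb in D80 wild-type and 35.6% (29.8 to 39.0) in D80 transgenic libraries, where Scn8a held 33.2% (30.6 to 36.2) and Scn3a 28.1% (25.8 to 31.0). Among calcium pores, Cacna1h was the largest in every group, and the shares of Cacna1a and Cacna1i were 15.5% (15.3 to 15.8) and 10.5% (7.87 to 12.1) in D80 transgenic libraries against 3.05% (2.48 to 4.16) and 0.0776% (0.0538 to 0.108) in D80 wild-type.

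The Kcnh genes encode the ether-a-go-go potassium channels, several of which damp repetitive firing. At D80, 5 of 6 were higher and none was lower, beside 19.4% and 22% of all genes. Kcnh5, Kcnh6 and Kcnh8 had passed the count minimum only with transgenic libraries, and of the other genes Kcnh1 and Kcnh2 were higher and Kcnh3 did not pass. Kcnh6 (GRCm38, chromosome 11, 106008124 to 106034549) measured 0.185, 0.612 and 0.381 CPM in D60 wild-type, 2.93, 5.88 and 3.83 in D60 transgenic, 0.650, 0.176 and 0.390 in D80 wild-type and 17.2, 28.9 and 19.6 in D80 transgenic libraries. The genotypes were apart at both ages, by 3.36 (SE 0.47, adjusted p = 0.0012) and 5.72 (SE 0.47, adjusted p = 5e-06). Kcnh2, the best known of the family for its part in the heartbeat and the highest per kb here, measured 29.9, 17.2 and 22.2 and 44.0, 67.3 and 45.1 CPM at D80 (1.17, SE 0.27, adjusted p = 0.0055). Its share of the family's level per kb was 90.3% (88.6 to 91.9) in D80 wild-type and 57.4% (56.3 to 58.8) in D80 transgenic libraries, where Kcnh6 held 32.8% (31.4 to 33.5). Kcnh1 and Kcnh8 were higher by 3.22 (SE 0.33, adjusted p = 2.6e-05) and 2.94 (SE 0.48, adjusted p = 0.00074). Kcnh5 had 0 counts in all 6 wild-type libraries and 1.14, 2.03 and 1.08 CPM in D80 transgenic libraries, at least 32.4-fold higher against a floor of 3 counts over the group.

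The promoter window of Kcnh6 is shown because it was the 1 window among 102 of 69 members with entries in RefSeq (250 bases before to 50 after a start, GRCm38.p6) that held TTCAGCACC on either strand. This is one part of RE1, the element bound by the REST repressor of neuronal genes, and GGACAG is taken from its other part. TTCAGCACC was in 0.371% of 32851 windows of all genes and GGACAG in 22.2%. The window lies on the plus strand at chr11:106007898-106008197. Capitals mark TTCAGCACC at bases 65 to 73 and GGACAG at bases 81 to 86, which do not overlap. Other bases lie between them, and whether they form an RE1 was not tested.
Kcnh6: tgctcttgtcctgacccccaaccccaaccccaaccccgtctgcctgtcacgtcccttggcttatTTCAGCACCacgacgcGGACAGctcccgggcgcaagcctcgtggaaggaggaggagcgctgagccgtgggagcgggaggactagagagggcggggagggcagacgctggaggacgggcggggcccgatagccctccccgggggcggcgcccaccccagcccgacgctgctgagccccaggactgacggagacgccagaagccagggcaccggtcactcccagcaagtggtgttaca

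Kcnq5, a pore of the Kv7 family, had a D80 log2 fold change of -0.53 (SE 0.29) and did not pass. Kcnq1ot1, a long RNA transcribed antisense to Kcnq1, stood at 1.504, 1.59 and 0.910 CPM in wild-type and 1.68, 1.70 and 2.67 in transgenic libraries at D80 without passing the test (0.59, SE 0.47, adjusted p = 0.34), and its reads cannot be separated from those of Kcnq1.

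Inward rectifiers (Kcnj) hold the voltage near rest. Those opened by G proteins, Kcnj3, Kcnj5 and Kcnj6, are how inhibitory receptors such as those for somatostatin and acetylcholine quiet endocrine cells and neurons, and all 3 were higher at both ages. All 3 had passed the count minimum only with the help of transgenic libraries. Kcnj3 measured 0.247, 0.188 and 0.143 CPM in D60 wild-type, 1.42, 1.96 and 0.894 in D60 transgenic, 0.122, 0.529 and 0.0867 in D80 wild-type and 6.49, 12.4 and 7.69 in D80 transgenic libraries. Its log2 fold changes were 2.88 (SE 0.60, adjusted p = 0.018) at D60 and 5.16 (SE 0.56, adjusted p = 3.6e-05) at D80. Kcnj6 measured 1.02, 0.750 and 0.894 CPM at D60 and 4.15, 4.72 and 3.13 at D80 in transgenic libraries, with 0 to 0.203 CPM in wild-type, by 3.603 (SE 0.83, adjusted p = 0.033) and 5.73 (SE 0.76, adjusted p = 0.00016). Kcnj5 rose by 2.22 (SE 0.39) at D60 and 3.14 (SE 0.38) at D80. None of the genotype groups of these genes overlapped. The D60 call of Kcnj6 was lost with a replicate block and without any 1 of the D60 libraries or of the D80 transgenic ones, and that of Kcnj3 was lost with limma-voom, without any 1 of the D60 wild-type libraries and without D60 transgenic replicate 2. The classical inward rectifier Kcnj4 was also higher, from 0.122, 0.0882 and 0 to 5.14, 8.33 and 4.68 CPM at D80 (6.31, SE 0.62, adjusted p = 1.7e-05).

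Kcnj16, a subunit that pairs with Kcnj10 in transporting epithelia, was lower at D80, 0.871, 1.33 and 1.80 against 3.09, 6.26 and 6.63 CPM (-1.996, SE 0.39, adjusted p = 0.002). At D60 its transgenic libraries lay above wild-type, 10.2, 6.79 and 7.96 against 6.54, 3.06 and 4.28 CPM, without passing the test (0.85, SE 0.36, adjusted p = 0.3). The pores of the ATP-sensitive channels, Kcnj8 of vascular and smooth muscle cells and Kcnj11 of endocrine cells, did not pass at D80 (0.78, SE 0.35, adjusted p = 0.097 and -0.57, SE 0.32, adjusted p = 0.17). Kcnj8 was the highest Kcnj member per kb in every group. Kcnj2, which lies 38196 bases from Kcnj16 on chromosome 11, had -0.18 (SE 0.23, adjusted p = 0.56).

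The tandem-pore channels (Kcnk) carry the background leak of potassium. At D80, 3 of 10 were higher and 5 lower, beside 19.4% and 22% of all genes. Kcnk12 and Kcnk13 had passed the count minimum only with the help of transgenic libraries, and of the other genes only Kcnk16 was higher. The higher call of Kcnk13 and the lower call of Kcnk7 were lost with 1 library left out, in 7 and 3 of the 12 such fits. That of Kcnk7 was also lost with sex as a covariate and without TMM factors. Kcnk16, an alkaline-activated channel known from pancreatic islets, measured 0.864, 1.32 and 2.86 CPM in D60 wild-type, 6.87, 10.5 and 9.36 in D60 transgenic, 3.58, 2.03 and 1.86 in D80 wild-type and 26.7, 43.4 and 29.6 in D80 transgenic libraries. The genotypes did not overlap, with 2.38 (SE 0.40, adjusted p = 0.0045) and 3.73 (SE 0.40, adjusted p = 3.6e-05). The summed level of 6 pancreatic islet markers was 0.853 to 85.2 CPM in D80 wild-type and 6.01 to 18.8 CPM in D80 transgenic libraries, where Ins1 and Ins2 were at 0 counts. Of the 3 that could be tested 1 was higher at D80, Iapp, and the part of islet cells in the Kcnk16 difference was not tested. Kcnk5, an acid-sensitive channel of epithelia, lies 79567 bases away on the same strand of chromosome 14 and was lower at D80, 25.1, 14.2 and 13.3 against 26.9, 60.0 and 77.1 CPM (-1.64, SE 0.35, adjusted p = 0.0034). Their D80 groups did not overlap in either gene, and the directions were opposite.

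The promoter windows of these neighbours (RefSeq, GRCm38.p6, minus strand) are shown because the genes moved apart and differ in CG dinucleotides, marked in capitals. Kcnk16 has 2 in 300 bases at chr14:20269220-20269519 and 57.0% G and C. Kcnk5 has 26 at chr14:20181733-20182032 and 63.7%. The median was 7 over all 32851 windows, 17 over the 35 windows of members higher at D80, 7 over the 21 of members lower and 9 over the 44 of members that did not pass, so the 2 windows lie against the order of the group medians.
Kcnk16: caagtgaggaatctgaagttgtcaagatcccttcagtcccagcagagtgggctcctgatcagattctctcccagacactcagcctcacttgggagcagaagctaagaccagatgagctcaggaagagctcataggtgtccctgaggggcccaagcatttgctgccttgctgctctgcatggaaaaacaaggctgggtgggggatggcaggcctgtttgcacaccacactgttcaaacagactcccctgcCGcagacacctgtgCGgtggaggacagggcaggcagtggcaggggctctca
Kcnk5: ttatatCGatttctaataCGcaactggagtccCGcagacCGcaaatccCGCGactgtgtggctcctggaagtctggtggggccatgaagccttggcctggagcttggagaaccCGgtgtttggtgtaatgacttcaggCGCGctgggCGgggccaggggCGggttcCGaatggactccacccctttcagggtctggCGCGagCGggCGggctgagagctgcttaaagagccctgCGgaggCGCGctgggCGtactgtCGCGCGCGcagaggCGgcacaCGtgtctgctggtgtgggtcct

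Kcnk3, an acid-sensitive leak channel, was lower at D80, 9.37, 10.2 and 7.03 against 35.9, 23.7 and 28.6 CPM (-1.73, SE 0.24, adjusted p = 0.00021). Kcnk6 and Kcnk10 were lower, with log2 fold changes of -1.28 (SE 0.17, adjusted p = 0.00016) and -1.17 (SE 0.28, adjusted p = 0.0059), at 39.5 ± 8.61 and 17.2 ± 4.82 CPM (SD, n = 3) in D80 transgenic tissue against 95.9 ± 15.2 and 38.8 ± 12.4 in wild-type. Kcnk12 measured 2.34, 3.36 and 1.55 CPM in D80 transgenic libraries (5.28, SE 0.70, adjusted p = 0.00016), and at D60 the ratio to the 1 count of the wild-type libraries was 25.9-fold with a counting interval of 4.33 to 1060, a call lost without any 1 of the D60 wild-type libraries or D60 transgenic replicate 2. Kcnk1, the highest Kcnk member per kb, measured 150 ± 36.6 CPM in D80 wild-type and 172 ± 9.39 in D80 transgenic tissue (0.20, SE 0.17, adjusted p = 0.38).

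Calcium-activated potassium channels couple calcium entry back to the voltage. Kcnma1, the pore of the large-conductance channel, and Kcnmb1, its beta subunit in smooth muscle, were lower at D80. Kcnmb1 measured 21.5, 15.7 and 17.7 CPM in wild-type and 7.54, 6.601 and 9.11 in transgenic libraries (-1.24, SE 0.23, adjusted p = 0.0018), and Kcnma1 measured 21.2, 20.2 and 23.1 and 9.73, 12.1 and 13.7 (-0.86, SE 0.26, adjusted p = 0.019). The groups of both genes were apart, and the Kcnma1 call was lost without TMM factors, with sex as a covariate and without D80 transgenic replicate 1 or 2. The beta subunits Kcnmb2 and Kcnmb4 had 0.89 (SE 0.35, adjusted p = 0.061) and 0.50 (SE 0.57, adjusted p = 0.51) and did not pass.

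Kcnn2, a small-conductance channel, showed one of the largest falls, from 2.84, 1.28 and 1.78 CPM to 0.0901, 0.221 and 0.124 at D80 (-3.75, SE 0.51, adjusted p = 0.0002). At D60 its transgenic libraries, 0.285, 0.708 and 0.809 CPM, were already below every wild-type library, 1.61, 1.98 and 2.38 CPM, at -1.73 (SE 0.44, adjusted p = 0.056). Kcnn4, the intermediate-conductance channel of epithelia and blood cells, was lower at D80, with a log2 fold change of -0.60 (SE 0.18), a call lost without TMM factors and without replicate 1 of the wild-type or 2 or 3 of the transgenic group of D80, and Kcnn3 did not pass (0.15, SE 0.24, adjusted p = 0.65). The sodium-activated channel Kcnt1 (GRCm38, chromosome 2, 25863734 to 25918273) measured 0, 0.0942 and 0.0952 CPM in D60 wild-type, 0.366, 0.792 and 0.724 in D60 transgenic, 0, 0 and 0.0433 in D80 wild-type and 2.76, 6.78 and 5.02 in D80 transgenic libraries. The D80 wild-type libraries held 1 count in all, and the ratio was 332-fold with a counting interval of 59.4 to 13200. At D60 the log2 fold change was 3.12 (SE 0.73, adjusted p = 0.034), a call lost without any 1 of the D60 wild-type libraries, D60 transgenic replicate 2 or 3, or D80 transgenic replicate 3. Its relatives Kcnt2 and Kcnu1 did not pass at D80 (0.21, SE 0.50, adjusted p = 0.76 and -0.54, SE 0.51, adjusted p = 0.42).

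Among the potassium channel auxiliary subunits, the largest difference was in Kcnip3, a calcium-binding protein that attaches to Kv4 channels and also binds DNA (GRCm38, chromosome 2, 127456498 to 127522094). It measured 1.79, 1.93 and 2.43 CPM in D60 wild-type, 4.80, 8.46 and 7.19 in D60 transgenic, 2.19, 2.38 and 2.38 in D80 wild-type and 28.7, 51.8 and 40.7 in D80 transgenic libraries. The genotypes were apart at both ages, by 1.73 (SE 0.26, adjusted p = 0.0022) and 4.12 (SE 0.27, adjusted p = 1e-06). Its level was 17.4-fold the wild-type mean at D80, when of the Kv4 genes Kcnd1 was higher and Kcnd2 and Kcnd3 were lower. Kcnip2 was lower at D60, 2.64, 4.17 and 3.19 against 7.04, 9.23 and 6.28 CPM (-1.17, SE 0.28, adjusted p = 0.04), and not at D80 (0.58, SE 0.27, adjusted p = 0.11). The D60 call was lost without any of the 3 D60 wild-type libraries, without D80 wild-type replicate 2, and without replicate 1 or 3 of either transgenic group. Kcnip1, which holds Kcnmb1 within its span on the opposite strand, did not pass at D80 (-0.69, SE 0.30, adjusted p = 0.082). The Kv1 beta subunit Kcnab2 was higher at both ages, by 1.41 (SE 0.32, adjusted p = 0.027) and 2.20 (SE 0.30, adjusted p = 0.00023), and Kcnab3 at D80 alone (1.98, SE 0.67, adjusted p = 0.034). The D60 call of Kcnab2 was lost without replicate 1 or 3 of the D60 wild-type group, replicate 2 or 3 of its transgenic counterpart, or D80 transgenic replicate 3. The D80 call of Kcnab3 was lost with sex as a covariate, with a minimum fold of 1.5, and without any 1 of the D80 transgenic libraries or D80 wild-type replicate 2 or 3. Kcnab2 shares exons with Gm16334 on the same strand, and Kcnab3 with Kcnab3os on the opposite one. Kcne3, an epithelial partner of Kcnq1, measured 309, 178 and 111 CPM in wild-type and 199, 160 and 234 in transgenic libraries at D80, -0.01 (SE 0.33, adjusted p = 0.98).

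The genotype difference itself differed between the ages in 13 members by the interaction term, 6 toward higher and 7 toward lower at D80, beside 2.77% and 2.23% of all genes. Kcna1 had an interaction of -3.15 (SE 0.49, adjusted p = 0.0089) and Kcnh1 one of 2.70 (SE 0.47, adjusted p = 0.012). Kcnip3, Kcnip2, Cacna2d3 and Cacna2d1 also went upward, and Kcnd3, Kcng4, Kcnj16, Kcnf1, Kcnk3 and Kcnk6 downward. In Kcnip2 and Kcnj16 the estimate changed sign between the ages, with Kcnip2 at -1.17 (SE 0.28) and 0.58 (SE 0.27) and Kcnj16 at 0.85 (SE 0.36) and -1.996 (SE 0.39). None of the 7 downward genes had passed at D60. With sex as a covariate 1 of the 13 calls remained, that of Kcnip3 toward higher. The calls of Cacna2d1, Cacna2d3, Kcnip2, Kcnk3 and Kcnk6 were lost with a minimum fold of 1.5 and without D60 transgenic replicate 3. Each of them was also lost with other single libraries left out.

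**Figure D5:**
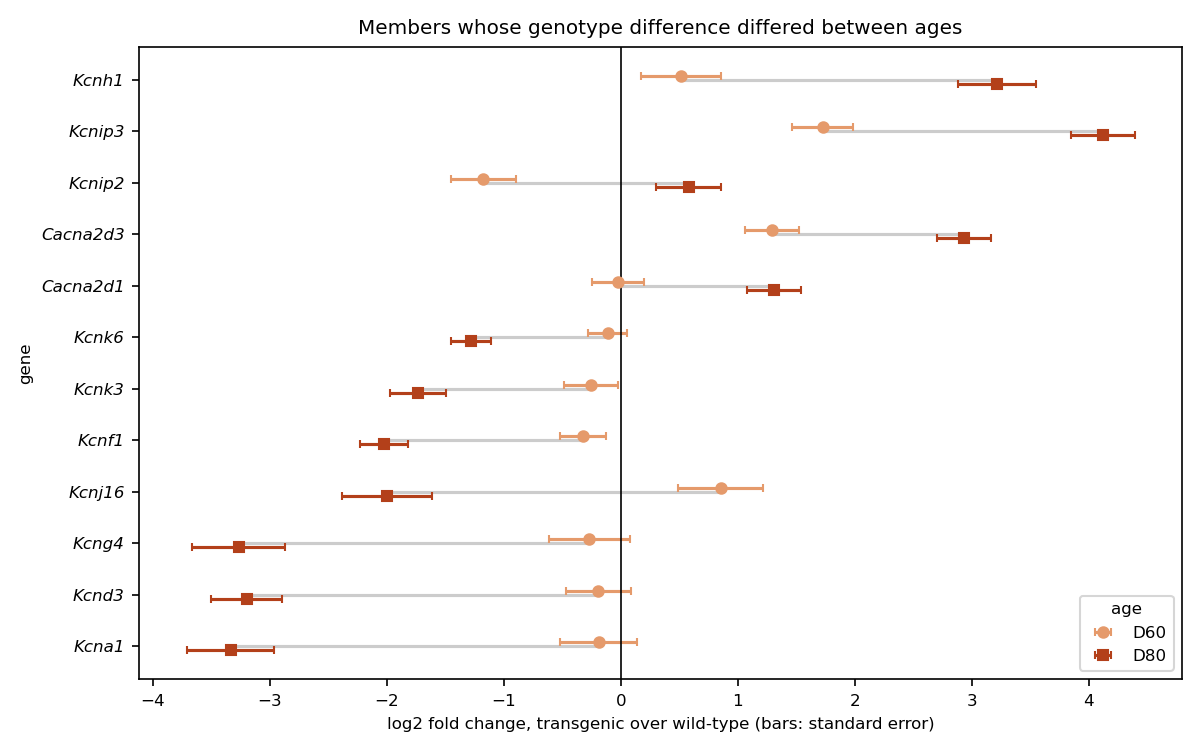
Log2 fold change of transgenic over wild-type (x axis) at D60 (circles) and D80 (squares) for 12 members with an interaction of genotype and age; bars are standard errors. The 7 genes in the lower part were within 0.85 of 0 at D60 and between -3.33 and -1.28 at D80.

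Genes that work with these channels were taken from a list of 44, of which 37 were tested. At D60 8 were higher and 0 lower (21.6% and 0%, beside 3.66% and 0.241% of all genes), and at D80 20 were higher and 5 lower (54.1% and 13.5%, beside 19.4% and 22%), with a median log2 fold change of 1.09 against -0.07 over all genes. The sodium leak channel Nalcn and its partners Unc79, Unc80 and Fam155a were all higher at D80, by 3.156 (SE 0.33, adjusted p = 2.8e-05), 4.02 (SE 0.39, adjusted p = 1.6e-05), 3.67 (SE 0.23, adjusted p = 8e-07) and 3.90 (SE 0.39, adjusted p = 1.9e-05). So were Fgf12 and Fgf14, which bind sodium channel tails, by 4.68 (SE 0.35, adjusted p = 2.6e-06) and 4.67 (SE 0.43, adjusted p = 1.2e-05), and the Kv4 partners Dpp6 and Dpp10, by 3.48 (SE 0.28, adjusted p = 4.1e-06) and 2.60 (SE 0.43, adjusted p = 0.00074). Amigo2 measured 4.32 ± 1.10 CPM in D80 wild-type and 97.2 ± 27.4 in transgenic tissue (4.49, SE 0.27, adjusted p = 6.5e-07), and Amigo1, a partner of Kv2 channels, was higher by 1.09 (SE 0.23, adjusted p = 0.0033). The pacemaker channel Hcn2 was also higher, by 1.34 (SE 0.17, adjusted p = 9.5e-05). Fgf11, Ank3, Lrrc26 and Stac were among the lower partners. Lrrc26, a subunit that lets the large-conductance channel open at rest in secretory epithelium, had a log2 fold change of -0.96 (SE 0.14, adjusted p = 0.00037). The sulfonylurea receptors Abcc8 and Abcc9, partners of Kcnj11 and Kcnj8, did not pass (-0.54, SE 0.37, adjusted p = 0.26 and -0.26, SE 0.23, adjusted p = 0.39).

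A total of 30 tested members passed in none of the comparisons of genotype or age, among them Cacna1b, Cacna1c, Cacna1h, Cacnb1, Cacnb2, Cacnb3, Kcne3, Kcnk1 and Kcnj8. Per kb of exon, Kcne3 and Kcnk1 had the highest levels of the 95 genes in all 4 groups, at 106 ± 36.6 and 70.0 ± 7.79 CPM per kb in D60 wild-type and 111 ± 21.0 and 77.0 ± 4.20 in D80 transgenic tissue (mean ± SD, n = 3). The third was Kcnn4 in every group, at 24.3 ± 3.02 and 15.7 ± 2.17, though Kcnj8 followed it within the SD in D80 transgenic tissue, at 15.6 ± 7.44. Kcnk6 followed Kcnn4 within the SD in wild-type tissue of both ages. In D80 transgenic tissue Kcnk16 stood at 14.0 ± 3.76 and Kcnip3 at 11.4 ± 3.26 CPM per kb, from 1.05 ± 0.397 and 0.654 ± 0.0307 in D80 wild-type. Most other members that were higher remained at lower levels, such as Cacna1i at 1.32 ± 0.375 CPM per kb. Of the 95 members, 31 share exon sequence with an annotated gene on the opposite strand, and for these the counts may include the partner's reads.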

How the data were processed

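RNA of bulk pylorus was profiled in 12 libraries, which the labels place in 4 groups of 3 by genotype and age. The authors deposited raw counts per gene symbol with no normalization. The tools named in the submitters' processing notes are HTSeq 0.9.1, STAR 2.5.3a and edgeR 3.16.5, with mm10 as the build. Per the labels' protocols, an Illumina stranded mRNA kit was used. Which annotation and which strand setting HTSeq used is not given in the sources used here. A normalized table by the authors was left aside.

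The raw counts were tested with edgeR 4.0.16 under R 4.3.3. Genes were kept by filterByExpr (15369 genes with 99.975% of counts), scaled by TMM factors of 0.805 to 1.30, and fitted over all 12 libraries with 1 coefficient per group and 8 residual degrees of freedom. The biological coefficient of variation was 24.2%. Benjamini-Hochberg adjustment ran over all tested genes, and a gene was called at an adjusted p under 0.05 whatever its fold. Cacna1s, Kcng2 and Scn4b were not tested. Groups with 0 counts were set against a floor of 3 counts over the group, and groups with 1 to 3 counts are given with 95% Clopper-Pearson counting intervals; both cover counting error only. Gene positions, exon lengths and overlaps came from GENCODE M21 and promoter windows from RefSeq. The pipeline was tested on simulated data.

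Members, partner genes, 15 marker lists and the rule for named genes were chosen with earlier results of these data known. The rule named the 6 largest changes per direction and comparison among called members with a mean of at least 1 CPM, the member with the highest mean CPM of each subfamily, and 37 fixed genes, 54 genes in all, of which some are not reported here; others are named where a count was small or where a subfamily is described, after their values were seen. Alternatives were other scaling factors, other filters, DESeq2 1.42.0, limma-voom (limma 3.58.1), a minimum fold of 1.5 (glmTreat), sex as a covariate, a fit of only the 2 groups compared, a replicate block, and each library left out in turn; leaving out D80 wild-type replicate 3 and D80 transgenic replicate 1 together was added after seeing the data.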

Additional observations from a re-analysis of the deposited data

Results flagged for a closer look

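In 11 named members the genotype difference at D80 differed from that at D60 by edgeR's interaction term, given here as the D80 minus the D60 log2 fold change. It was 2.70 in Kcnh1, 2.39 in Kcnip3, 1.75 in Kcnip2, 1.64 in Cacna2d3 and 1.33 in Cacna2d1. It was -1.48 in Kcnk3, -1.70 in Kcnf1, -2.85 in Kcnj16, -2.99 in Kcng4, -3.01 in Kcnd3 and -3.15 in Kcna1. With sex as a covariate, Kcnip3 kept its call and the other named members did not.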

How the results depend on the processing

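Most calls kept their side of the threshold at D80, and no member that kept its call turned direction under any alternative run. With a minimum fold of 1.5, 45 of the 57 D80 calls remained. Those of Kcna2, Kcnk7, Kcnk13, Kcnma1, Kcnn4, Scn2b and Scn7a were among the calls lost. At D60 the 16 higher members became 10 with limma-voom, 1 with sex as a covariate and 10 to 17 with 1 library left out, with 10 without D60 wild-type replicate 1 or 3 or D60 transgenic replicate 2. The 1 lower member became 2 with DESeq2 or its size factors, 0 with limma-voom, glmTreat, no composition factor or sex as a covariate, and 0 to 2 with 1 library left out. Between ages in transgenic mice the 22 lower members became 13 with glmTreat or no composition factor and 14 to 23 with 1 library left out, with 14 without replicate 2 of either transgenic group. For the interaction, the 6 higher members became 14 with DESeq2, 3 with glmTreat, 1 with sex as a covariate and 3 to 13 with 1 library left out, with 3 when D60 transgenic replicate 3 or D80 transgenic replicate 2 was left out, 10 when D60 wild-type replicate 1 was and 13 when D80 wild-type replicate 1 was. The 7 lower members became 0 with sex as a covariate and 5 to 10 with 1 library left out. With 1 library left out, D80 counts were 29 to 35 higher and 18 to 24 lower, and 24 to 35 members were higher with age in transgenic mice. With a replicate block the counts were 16 and 1 at D60, 33 and 22 at D80, 32 and 22 with age in transgenic mice and 7 and 7 for the interaction. The 18 same-number pairs had residual correlations of -0.34 to 0.39 and a mean of -0.004, and 3 of 12 libraries were closest to their own number, so the numbers were not treated as pairs. The causes of these changes were not tested. Members with few counts in wild-type tissue, such as Kcnk12 and Kcnt1, have wide counting intervals. Kcnh5, with 0 counts there, has only a lower bound against the floor.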
